A study of Mus musculus with 2 samples.

Results

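The genes described here are 10 genes of salt, magnesium and water reabsorption in the distal nephron: Slc12a1, Umod, Slc12a3, Kcnj1, Trpm6, Scnn1a, Scnn1b, Scnn1g, Aqp2 and Aqp3. They were chosen by name, and all 10 were found among the 21855 genes of the matrix. Cells of mouse kidney with folic acid (FA)-induced nephropathy and of control (Ctrl) mouse kidney were captured in droplets, 1 library each, both labelled wild type. Folic acid is a vitamin that damages kidney tubules when given in excess, and the series asks about the pore-forming proteins GSDMD and GSDME in that injury. The labels used here state no dose, time after FA, age or number of animals behind a library.

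The distal nephron follows the loop of Henle. The thick ascending limb takes up sodium, potassium and chloride through the furosemide-sensitive cotransporter NKCC2 (Slc12a1). The next segment, the distal convoluted tubule, takes up sodium and chloride through the thiazide-sensitive cotransporter NCC (Slc12a3) and magnesium through the channel TRPM6. In the collecting duct, principal cells reabsorb sodium through the aldosterone-regulated channel ENaC (Scnn1a, Scnn1b and Scnn1g) and water through vasopressin-regulated AQP2 on the apical side and AQP3 on the basolateral side. ROMK (Kcnj1) returns or secretes potassium along these segments, and uromodulin (Umod) is the abundant urinary protein secreted by the thick ascending limb.

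In RefSeq coordinates on GRCm38.p6, which is the build the submitters' notes call mm10, Slc12a1 lies at chr2:125152510-125230002, Umod at chr7:119462708-119479262 and Slc12a3 at chr8:94329109-94366222. Kcnj1 lies at chr9:32372418-32399197, Trpm6 at chr19:18730177-18892521 and Scnn1a at chr6:125314271-125344943. Scnn1g (chr7:121734420-121768482) and Scnn1b (chr7:121865038-121918728) are neighbours on chromosome 7, while Aqp2 lies at chr15:99579056-99584545 and Aqp3 at chr4:41092724-41098183. RefSeq promoter entries were matched for 9 of the 10 genes. The entries for Umod and Aqp2 are shown because they hold a short motif of a factor family known to act on these genes in kidney, and because the members' levels moved together between the libraries. Capitals mark the motif, GTTAAT (a half-site of HNF1 factors) for Umod and TGACGT (the core of a cAMP response element) for Aqp2, where it is read on the opposite strand as ACGTCA; both strands were searched. Umod is on the minus strand at chr7:119479213-119479512 and Aqp2 on the plus strand at chr15:99578806-99579105.
Umod promoter: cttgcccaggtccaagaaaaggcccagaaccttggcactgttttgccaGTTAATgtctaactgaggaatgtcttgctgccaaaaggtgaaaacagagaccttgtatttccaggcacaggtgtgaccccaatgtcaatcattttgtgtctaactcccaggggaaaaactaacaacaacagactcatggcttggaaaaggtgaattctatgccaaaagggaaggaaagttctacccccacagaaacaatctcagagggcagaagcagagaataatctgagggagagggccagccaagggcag
Aqp2 promoter: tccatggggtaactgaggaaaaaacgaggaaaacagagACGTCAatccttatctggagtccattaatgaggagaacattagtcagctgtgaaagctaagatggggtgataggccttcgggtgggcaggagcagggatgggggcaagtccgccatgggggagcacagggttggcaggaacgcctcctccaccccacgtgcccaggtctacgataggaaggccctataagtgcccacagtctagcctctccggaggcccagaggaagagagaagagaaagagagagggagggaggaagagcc
The Umod motif starts at position -202 and the Aqp2 motif at position -212 from the gene start. GTTAAT occurs in 7.2% and TGACGT in 7.64% of all 27025 RefSeq promoters of that length, and each was found in 1 of the 9 matched members, so these matches are descriptions of the sequence and no more.

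The FA library held 18997 barcodes and 84138607 unique molecular identifiers (UMIs, each a counted transcript molecule), and the Ctrl library 9681 barcodes and 63646459 UMIs. A filter of 200 genes, 500 UMIs and no more than 50% mitochondrial UMIs passed 15922 barcodes in FA and 6295 in Ctrl. After likely doublets were left out, 13407 FA and 5807 Ctrl cells remained, and their median depth was 3184 UMIs in FA and 4829 UMIs in Ctrl. Levels are given as CPM, in which the summed UMIs of a library or class are scaled to a common total. Each group has 1 library, so differences carry no replicate check and no p-value; each interval is a 95% interval of counting error between these libraries only. The libraries also differ in ways other than FA: Xist had 104149 UMIs in FA and 15 in Ctrl, Ddx3y had 0 in FA and 3928 in Ctrl, and the share of barcodes over 50% mitochondrial UMIs was 15.7% in FA and 34.9% in Ctrl. Sex, library and FA treatment therefore cannot be told apart. The 2 libraries shared 54 barcode sequences.

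Transcripts of all 10 genes were less abundant in the FA library than in the Ctrl library, whether kept cells or all deposited barcodes were summed. In kept cells, 10 of 10 had a ratio of FA over Ctrl at or below the inverse of 1.5, the threshold for calling a gene lower, and 27.9% of 17939 measured genes did so. Their median log2 ratio was -2.57, and that of all measured genes was -0.08. In such sums, fewer cells of a type and less RNA per cell cannot be told apart.

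The cotransporter of the thick ascending limb, Slc12a1, had 1479 UMIs in FA and 6918 in Ctrl, levels of 23.2 CPM in FA and 171 CPM in Ctrl. Its ratio was 0.135 (95% interval 0.128 to 0.143). Umod, made by the same cells, had 6731 UMIs (105 CPM) in FA and 18291 UMIs (452 CPM) in Ctrl, with a ratio of 0.233 (0.227 to 0.24). Umod was thus lower in FA by a smaller factor than Slc12a1, with intervals that do not overlap.

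The most uneven of the 10 was Slc12a3, the thiazide-sensitive cotransporter, with 894 UMIs (14 CPM) in FA and 18074 UMIs (447 CPM) in Ctrl. Its ratio of 0.0313 (0.0293 to 0.0335) was the lowest of the 10. The magnesium channel Trpm6 had 103 UMIs in FA and 407 in Ctrl, a ratio of 0.16 (0.128 to 0.199). The potassium channel Kcnj1 had 369 UMIs (5.78 CPM) in FA and 1905 UMIs (47.1 CPM) in Ctrl, a ratio of 0.123 (0.109 to 0.137).

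The 3 ENaC subunits had ratios close to each other. The alpha subunit Scnn1a had 426 UMIs in FA and 1410 in Ctrl (ratio 0.191, 0.171 to 0.213), the beta subunit Scnn1b 147 in FA and 525 in Ctrl (0.177, 0.147 to 0.213), and the gamma subunit Scnn1g 84 in FA and 341 in Ctrl (0.156, 0.121 to 0.199). All 3 intervals overlap. Of the water channels, Aqp2 had 962 UMIs (15.1 CPM) in FA and 1944 UMIs (48.1 CPM) in Ctrl, the ratio nearest to 1 at 0.313 (0.29 to 0.339). Aqp3 had 569 UMIs (8.91 CPM) in FA and 2029 UMIs (50.2 CPM) in Ctrl, a ratio of 0.178 (0.162 to 0.195).

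**Figure D1:**
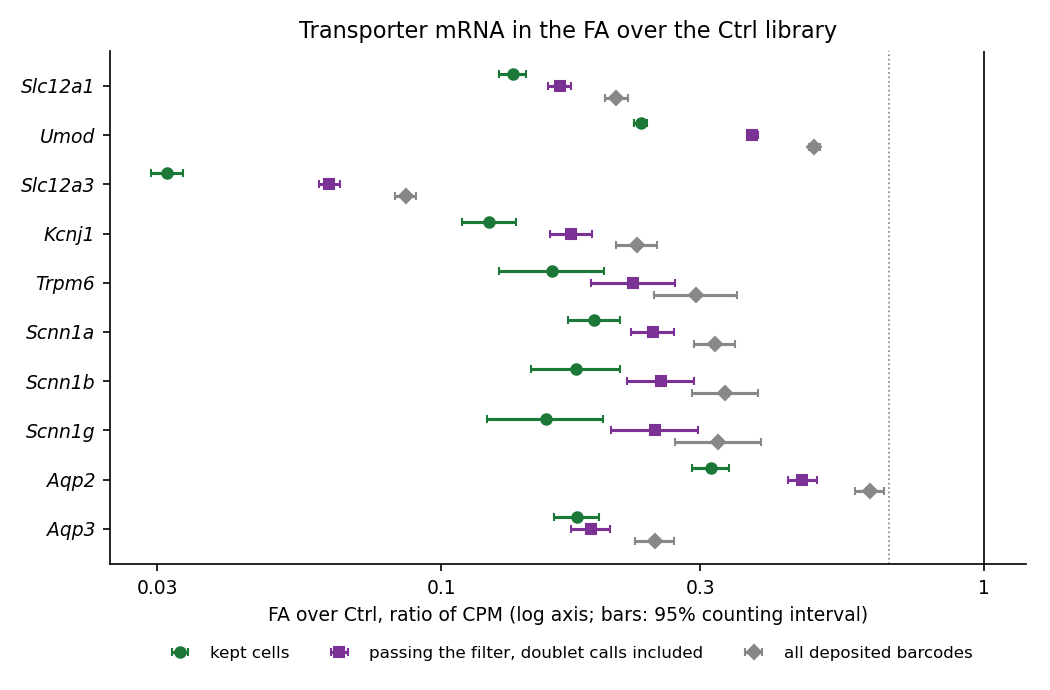
Ratio of CPM, FA over Ctrl, on a log axis for each of the 10 genes, over kept cells (circles), all cells passing the filter (squares) and all deposited barcodes (diamonds); bars are 95% counting intervals and the dotted line marks the inverse of 1.5. Every point lies left of that line, from 0.0313 for Slc12a3 in kept cells to 0.615 for Aqp2 over all barcodes, and every gene's ratio lies nearest to 1 over all barcodes.

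Over all deposited barcodes the same 10 of 10 genes were lower in FA, beside 17.6% of 18057 measured genes. The ratios were nearer to 1 than in kept cells, and the median log2 ratio of all measured genes rose as well, from -0.08 to 0.26. Part of the rise lies in the library totals used for scaling. From cells passing the filter to all barcodes, Slc12a1 went from 2066 to 2096 UMIs in FA and from 7115 to 7554 in Ctrl. Its ratio nevertheless rose from 0.165 to 0.21. Slc12a3 had 2253 UMIs (26.8 CPM) in FA and 19821 UMIs (311 CPM) in Ctrl, a ratio of 0.086 (0.0823 to 0.0898). Umod had 12604 UMIs (150 CPM) in FA and 19608 UMIs (308 CPM) in Ctrl, a ratio of 0.486 (0.475 to 0.497). The ratio of Aqp2 was 0.615 (0.578 to 0.654), from 22.1 CPM in FA and 35.9 CPM in Ctrl. The other 7 ratios ran from 0.21 for Slc12a1 to 0.333 for Scnn1b. The median log2 ratio of the 10 genes was -1.71 over all barcodes, against 0.26 for all measured genes, and among cells passing the filter with likely doublets included it was -2.09, against -0.09, with 10 of 10 genes and 27.1% of 18045 measured genes lower.

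Barcodes called likely doublets made up part of the difference between these sums. Those with at least 10 UMIs of the 10 genes together numbered 236 in FA, 1.24% of the library's barcodes (1.09% to 1.41%), and 450 in Ctrl, 4.65% (4.24% to 5.09%). They held 89.4% of the members' UMIs in FA and 96.1% in Ctrl. Of those that passed the filter, 128 of 232 in FA (55.2%) and 37 of 414 in Ctrl (8.94%) were called doublets, beside 15.8% of all passing barcodes in FA and 7.75% in Ctrl. Only 1 of them in FA and 1 in Ctrl exceeded Scrublet's own threshold, a stricter call than the fixed share used here. High mitochondrial shares removed few: 4 in FA and 36 in Ctrl.

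The FA barcodes called doublets carried a UMI of Ptprc, the pan-leukocyte gene CD45, in 23 of 128 cases (18%), and the kept FA barcodes in 18 of 104 (17.3%). Among kept Ctrl barcodes the count was 23 of 377 (6.1%). Lcn2, a gene that injured tubules switch on, stood at 5683 CPM in the FA barcodes called doublets, 2592 CPM in kept FA barcodes and 30 CPM in kept Ctrl barcodes. The haemoglobin gene Hbb-bs had 601 CPM in the FA barcodes called doublets and 0 in kept FA barcodes. Whether these barcodes are pairs of cells was not tested, so values within the 3 distal classes are given with likely doublets left out and, for measured members that moved by over 1.5 times, with them kept.

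By gene, barcodes called doublets held 53.6% of all FA UMIs of Slc12a3, 47.3% of Aqp2, 45.3% of Umod and 28% of Slc12a1. In Ctrl the largest such share was 17.8%, for Scnn1b, and those of Slc12a3 and Umod were 5.78% and 3.24%. Kept cells held 39.7% of the FA UMIs of Slc12a3, 51.8% of Aqp2 and 53.4% of Umod, so for Slc12a3 more was left out than kept.

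**Figure D2:**
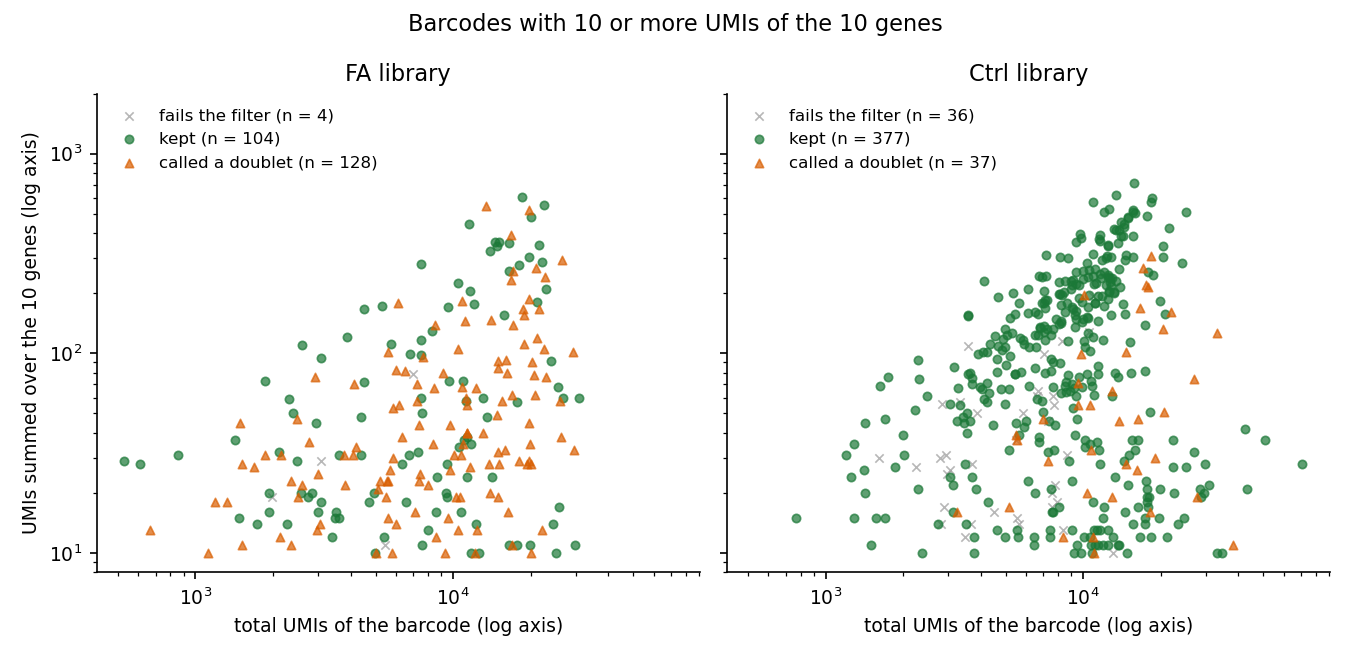
Each point is a barcode with at least 10 UMIs of the 10 genes, by its total UMIs (x, log axis) and its UMIs summed over the 10 genes (y, log axis), in FA (left) and Ctrl (right); shape and colour give its filter state. In FA 104 were kept, 128 called doublets and 4 failed the filter, and in Ctrl 377, 37 and 36.

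Cells were then classed by clustering without the 10 genes and named from other markers, so the classes do not use the members. Thick ascending limb-like, distal convoluted tubule-like and principal cell-like cells together made up 97 of 13407 kept cells in FA (0.724%, 0.587% to 0.882%) and 360 of 5807 in Ctrl (6.2%, 5.59% to 6.85%). The 3 classes numbered 40, 39 and 18 cells in FA and 105, 205 and 50 cells in Ctrl. With likely doublets kept in the clustering, FA held 97, 79 and 53 such cells and Ctrl 102, 228 and 52. The share in FA was then 1.44%. Of these cells, 55, 46 and 38 in FA and 0, 21 and 11 in Ctrl were called doublets. Most FA cells of each class were then called doublets, and most Ctrl cells were not. Immune-like cells made up 54% of kept cells in FA and 29.3% in Ctrl, so shares of tubule cells also move with them.

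With likely doublets left out, each of the 10 genes had its highest level in 1 of the 3 distal classes in both libraries. For Trpm6 in FA that level came from 4 UMIs. With likely doublets kept, a distal class was highest for 9 of the 10 in FA and all 10 in Ctrl. Slc12a1 was highest in thick ascending limb-like cells, at 2646 CPM in FA and 7524 CPM in Ctrl, and these cells held 89.3% of its kept UMIs in FA and 95.1% in Ctrl. Umod was also highest there, at 10860 CPM in FA and 14840 CPM in Ctrl. Distal convoluted tubule-like cells came next for Umod, with 2583 CPM in FA and 3313 CPM in Ctrl, followed by intercalated-like cells with 819 CPM in FA and 143 CPM in Ctrl. No neighbours in that order had overlapping intervals in either library, but these intervals cover counting error only. In FA, 199 of the 273 Umod UMIs of distal convoluted tubule-like cells lay in 5 cells. With likely doublets kept, the FA level of Umod in that class was 543 CPM.

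Slc12a3 was highest in distal convoluted tubule-like cells, at 2630 CPM in FA and 11400 CPM in Ctrl. Its UMIs were nevertheless spread differently: these cells held 31.1% of its kept UMIs in FA and 94.3% in Ctrl, and thick ascending limb-like cells 49.9% in FA and 4.74% in Ctrl. Trpm6 peaked in the same class in Ctrl, at 222 CPM, and had 37.9 CPM there in FA from 4 UMIs. That FA interval of 10.3 to 96.9 CPM overlaps the 22 CPM (11 to 39.4) of FA thick ascending limb-like cells. Distal convoluted tubule-like cells held 3.88% of kept Trpm6 UMIs in FA and 81.6% in Ctrl. Thick ascending limb-like cells held 10.7% in FA and 3.19% in Ctrl, and principal cell-like cells 0.971% and 1.23%. Most kept FA Trpm6 UMIs thus lay outside the 3 distal classes. Individual cells rarely carried both cotransporters: of cells with at least 5 UMIs of Slc12a1, 1 of 30 in FA and 3 of 97 in Ctrl had a UMI of Slc12a3. Umod accompanied Slc12a1 in 30 of 30 such cells in FA and 91 of 97 in Ctrl. Of cells with at least 5 UMIs of Slc12a3, 9 of 20 in FA and 143 of 168 in Ctrl had a UMI of Umod.

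Kcnj1 spanned all 3 classes. In FA it stood at 711 CPM in principal cell-like, 539 CPM in distal convoluted tubule-like and 391 CPM in thick ascending limb-like cells, and in Ctrl at 645, 750 and 503 CPM in the same classes. Neighbours overlapped in FA except that the thick ascending limb-like interval (338 to 450 CPM) lay below that of principal cell-like cells (560 to 892 CPM). In immune-like cells it had 0.289 CPM in FA and 0.972 CPM in Ctrl.

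The ENaC subunits had unlike distributions. Scnn1b and Scnn1g were highest in principal cell-like cells, Scnn1b at 635 CPM in FA and 616 CPM in Ctrl and Scnn1g at 407.8 CPM in FA and 391.6 CPM in Ctrl. The next class, distal convoluted tubule-like cells, had 85.2 CPM in FA and 77 CPM in Ctrl of Scnn1b, and 56.8 CPM in FA and 64.9 CPM in Ctrl of Scnn1g. Scnn1a was broader: its 4 highest classes in FA ran from 294 CPM in principal cell-like to 178 CPM in thick ascending limb-like cells, and in Ctrl from 614 to 225 CPM in the same classes. Intercalated-like cells, the acid-base cells of the collecting duct, held 24.2% of Scnn1a UMIs in FA and 23.6% in Ctrl.

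Aqp2 was close to exclusive, with 90.3% of its kept UMIs in principal cell-like cells in FA and 98.8% in Ctrl. Of these cells, 17 of 18 in FA (94.4%) and 49 of 50 in Ctrl (98%) had an Aqp2 UMI, against 0.608% of immune-like cells in FA and 0.0588% in Ctrl. Median depths were 4006 UMIs in FA and 10017 UMIs in Ctrl for the principal cell-like cells, and 3383 UMIs in FA and 3877 UMIs in Ctrl for the immune-like cells. With each cell thinned to 1000 UMIs, 88.2% of principal cell-like cells in FA (1 shallower cell left out) and 80% in Ctrl had one. Aqp3 was shared more widely, with 23% of kept UMIs in principal cell-like cells in FA and 38.5% in Ctrl, 41.7% in FA and 28.7% in Ctrl in urothelial-like cells, and 10.9% in FA and 18.4% in Ctrl in proximal tubule-like cells.

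**Figure D3:**
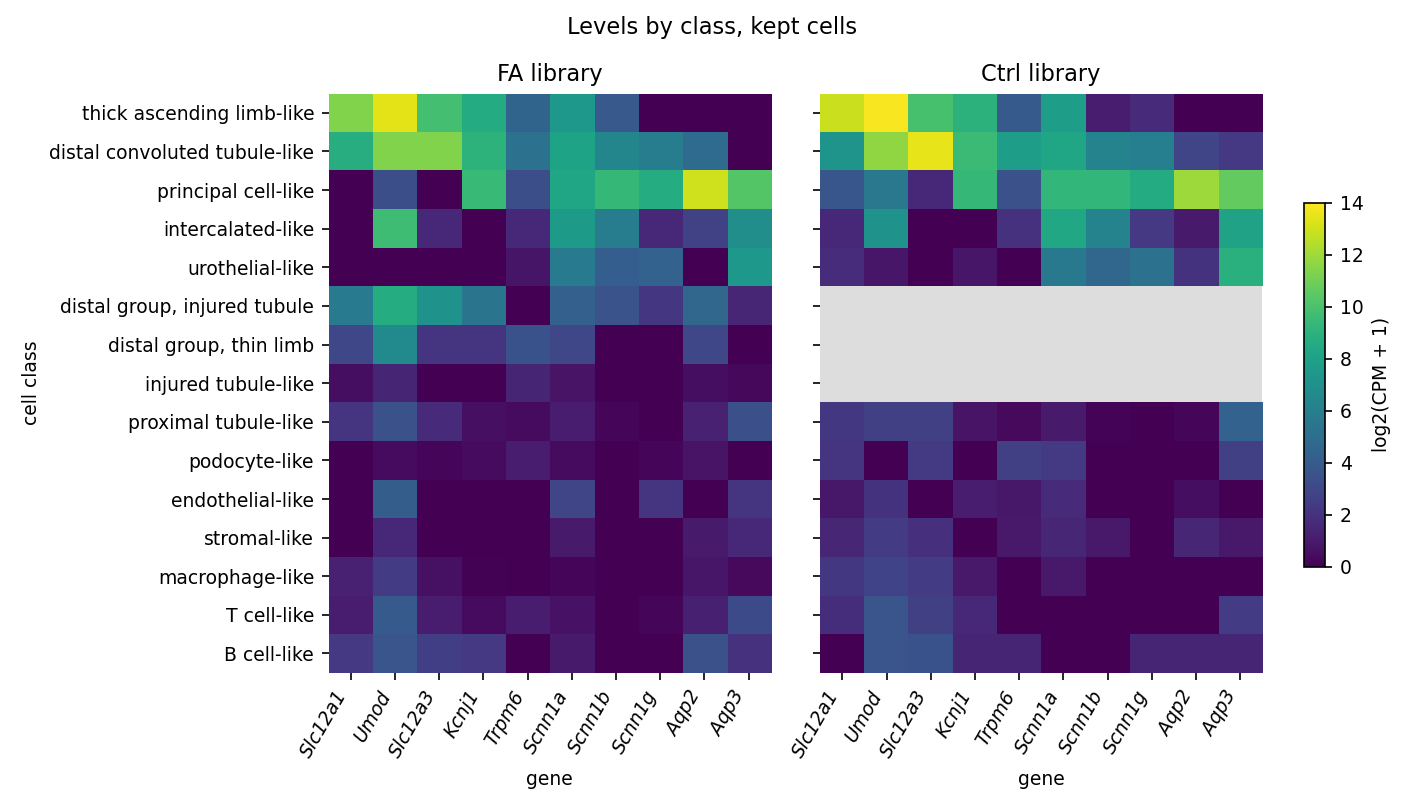
Level of each gene as log2(CPM + 1) (colour) by cell class (rows) and gene (columns) in kept cells of FA (left) and Ctrl (right); grey marks classes with under 10 cells. The bright cells lie in the 3 distal rows at the top in both libraries, for example Umod at 10860 CPM in FA and 14840 CPM in Ctrl in thick ascending limb-like cells, and Aqp3 reaches into the urothelial-like row.

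Levels within a class were compared next, because they do not scale with how many cells of it were captured. They still depend on which cells were placed in the class, and that mixture differed between the libraries. Within thick ascending limb-like cells, 1 of the 6 measured members, Slc12a1, was lower in FA and 0 were higher, beside 20.2% of 7275 measured genes lower and 17.7% higher. Its ratio was 0.352 (0.331 to 0.373). Umod had a ratio of 0.732 (0.709 to 0.756), Kcnj1 0.776 (0.652 to 0.921), Scnn1a 0.791 (0.609 to 1.02) and Slc12a3 0.913 (0.812 to 1.02), none past 1.5-fold. Trpm6, with 11 UMIs in FA and 13 in Ctrl, had a ratio of 1.48 (0.601 to 3.59). Aqp2 and Aqp3 had 0 UMIs in this class in both libraries.

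Cells of this class lay in different sub-clusters by library. Of the FA cells, 36 of 40 lay in a sub-cluster led by Klk1, Lcn2 and Wfdc2 that held 5 Ctrl cells, and the Ctrl cells lay in 2 others, of 57 and 43 Ctrl cells and 3 and 1 FA cells. In those 36 FA cells Slc12a1 stood at 2409 CPM and Umod at 9948 CPM, and in the 2 Ctrl sub-clusters Slc12a1 stood at 7260 and 8763 CPM and Umod at 16230 and 13560 CPM. Slc12a1 UMIs lay in 26 of the 36 FA cells, and in 52 of the 57 and 40 of the 43 Ctrl cells. Slc12a3 had 446 UMIs in 9 of the 36 FA cells, 628 UMIs in 7 of the 57 Ctrl cells and 0 in the 43 Ctrl cells. How far such cells set the class ratios was not tested. Lcn2 reached 4025 CPM in FA and 4.58 CPM in Ctrl over the whole class, and Egf, a growth factor made in this segment, 597 CPM in FA and 7546 CPM in Ctrl. With likely doublets kept, the Slc12a1 ratio was 0.166 (0.158 to 0.176), that of Umod 0.519 (0.505 to 0.533), that of Kcnj1 0.476 (0.407 to 0.555) and that of Scnn1a 0.592 (0.475 to 0.738), all past 1.5-fold. Slc12a3 moved most: clustered with the likely doublets, the class had 955 Slc12a3 UMIs (777 CPM) in FA and 2 UMIs (2.53 CPM) in Ctrl, a ratio of 307.5 (84.9 to 2543). Trpm6 then had 32 UMIs in FA and 0 in Ctrl. The near-even Slc12a3 and Trpm6 ratios of this class thus depended on the clustering and on the likely doublets.

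Within distal convoluted tubule-like cells, 2 of 8 measured members were lower in FA and 1 was higher, beside 35.9% of 6457 measured genes lower and 15.7% higher. Slc12a3 had a ratio of 0.231 (0.204 to 0.26), and Trpm6 had 4 UMIs in FA and 332 in Ctrl, a ratio of 0.17 (0.0462 to 0.44). Kcnj1 had a ratio of 0.719 (0.541 to 0.939), and those of Umod, Scnn1a, Scnn1b and Scnn1g lay between 0.78 and 1.11. The member that was higher was Slc12a1, with 45 UMIs (426 CPM) in FA and 222 UMIs (149 CPM) in Ctrl, a ratio of 2.87 (2.03 to 3.96). These UMIs lay in 5 of 39 FA cells and 7 of 205 Ctrl cells.

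With likely doublets kept, 79 FA and 228 Ctrl cells made up the class, and more members were lower. Of these cells, 46 in FA and 21 in Ctrl were called doublets. Slc12a3 stayed near its value at 0.205 (0.19 to 0.222) and Trpm6 was at 0.107 (0.0427 to 0.223). Umod was then also lower, at 0.192 (0.164 to 0.223), as were Kcnj1 at 0.478 (0.388 to 0.583) and Scnn1a at 0.544 (0.401 to 0.724). Slc12a1 had 19 UMIs (58.3 CPM) in FA and 7 UMIs (3.9 CPM) in Ctrl, a ratio of 14.9 (6.01 to 42). Aqp2, which had 3 UMIs in FA and 10 in Ctrl without the doublets, had 42 in FA and 42 in Ctrl, a ratio of 5.5 (3.5 to 8.65).

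That class was also not the same mixture in both libraries. A sub-cluster of 13 FA and 90 Ctrl cells had Slc12a3 at 157 CPM in FA and 13180 CPM in Ctrl, Slc12a1 at 2036 CPM in FA and 279 CPM in Ctrl, and Umod at 10390 CPM in FA and 5283 CPM in Ctrl. The FA levels came from few cells: Slc12a1 UMIs lay in 3, Umod UMIs in 5 and Slc12a3 UMIs in 1 of the 13 FA cells, whose median depth was 1079 UMIs, against 4, 86 and 81 of the 90 Ctrl cells. In the sub-cluster best shared by the libraries, of 19 FA and 32 Ctrl cells, Slc12a3 stood at 1857 CPM in FA and 2745 CPM in Ctrl, Kcnj1 at 539 CPM in FA and 870 CPM in Ctrl, and Umod at 1374 CPM in FA and 589 CPM in Ctrl. Trpm6 had 3 UMIs in FA and 9 in Ctrl there, too few to compare. Of the class markers, Calb1, a calcium-binding protein of this segment, stood at 2053 CPM in FA and 7272 CPM in Ctrl, and Pvalb, a marker of its early part, at 0 UMIs in FA and 1157 UMIs in Ctrl. Median depth was 1795 UMIs in FA and 6503 UMIs in Ctrl; with each cell thinned to 1000 UMIs, 41.4% of the FA cells (10 left out) and 81.8% of the Ctrl cells (7 left out) had an Slc12a3 UMI, and unthinned 33.3% and 83.4%.

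Within principal cell-like cells, 2 of 7 measured members were lower in FA and 1 was higher, beside 24.5% of 4858 measured genes lower and 19.8% higher. Aqp2 was the one higher, with 869 UMIs (8241 CPM) in 18 FA cells and 1921 UMIs (3918 CPM) in 50 Ctrl cells, a ratio of 2.1 (1.94 to 2.28). The alpha subunit Scnn1a was lower, with 31 UMIs (294 CPM) in FA and 301 UMIs (614 CPM) in Ctrl, a ratio of 0.479 (0.32 to 0.694). Umod, which is not a gene of these cells, was the other, with 1 UMI in FA and 23 in Ctrl; its ratio of 0.202 has an interval that spans 1 (0.00491 to 1.25).

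The remaining subunits and channels of the principal cell were nearer to even. Scnn1b had a ratio of 1.03 (0.78 to 1.35), Scnn1g 1.04 (0.73 to 1.46), Kcnj1 1.1 (0.846 to 1.42) and Aqp3 0.779 (0.642 to 0.938). All cells of this class came from 1 sub-cluster, led by Klk1, Hsd11b2 and Fxyd4. Of these, Hsd11b2 (the enzyme that keeps cortisol and corticosterone from the aldosterone receptor) and Fxyd4 (a regulator of the sodium pump), stood at 4059 CPM and 5557 CPM in FA and at 6461 CPM and 4324 CPM in Ctrl. Lcn2 stood at 3746 CPM in FA and 224 CPM in Ctrl.

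The higher Aqp2 level within the class depended on the likely doublets. With them kept, 53 FA and 52 Ctrl cells made up the class, of which 38 in FA and 11 in Ctrl were called doublets. Aqp2 then stood at 3685 CPM in FA and 3685 CPM in Ctrl, a ratio of 1 (0.936 to 1.07). Scnn1a was lower in FA there too (0.355, 0.272 to 0.459), as was Aqp3 (0.314, 0.267 to 0.367), and Scnn1b and Scnn1g stood at 0.621 (0.506 to 0.759) and 0.668 (0.51 to 0.87). Kcnj1 was lower as well, at 0.611 (0.494 to 0.752), and Umod, with 7 UMIs in FA and 13 in Ctrl, had a ratio of 0.687 (0.232 to 1.85).

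**Figure D4:**
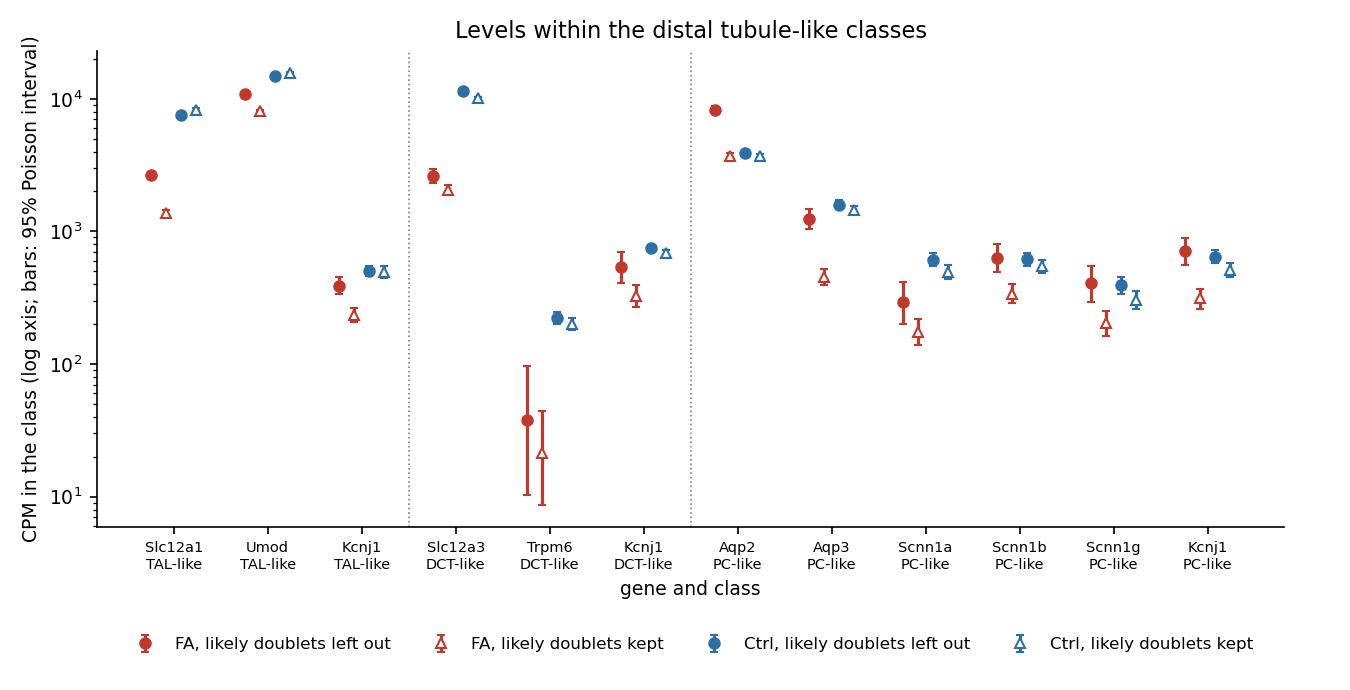
CPM within a class (log axis) for 12 pairs of gene and class, with FA in red to the left of Ctrl in blue, likely doublets left out (filled circles) or kept (open triangles); bars are 95% Poisson intervals, and TAL, DCT and PC stand for thick ascending limb, distal convoluted tubule and principal cell. Slc12a1 and Slc12a3 lie lower in FA either way, at 2646 CPM against 7524 CPM and at 2630 CPM against 11400 CPM with doublets left out, and Aqp2 meets the Ctrl level of 3685 CPM when they are kept.

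Members were also measured in 2 neighbouring epithelia. In intercalated-like cells, 2 of 4 measured members were lower in FA and 1 was higher, beside 18.0% of 7546 measured genes lower and 21.4% higher. Scnn1a had 103 UMIs in FA and 333 in Ctrl (ratio 0.585, 0.465 to 0.732), and Aqp3 had 63 in FA and 261 in Ctrl (0.457, 0.341 to 0.603). Umod was higher, with 426 UMIs in FA and 141 in Ctrl (5.72, 4.71 to 6.96), although the share of cells with a Umod UMI was 18.6% in FA and 28.1% in Ctrl, and 12.9% and 9.16% after thinning to 1000 UMIs. Median depth was 1191 UMIs in FA and 5129 UMIs in Ctrl. In urothelial-like cells, which line the renal pelvis, Aqp3 had 237 UMIs (174 CPM) in FA and 583 UMIs (466 CPM) in Ctrl, a ratio of 0.373 (0.319 to 0.434), and Scnn1g a ratio of 0.571 (0.343 to 0.935); the other 2 measured members, Scnn1a and Scnn1b, lay within 1.5-fold. These were 2 of 4 measured members, beside 19.2% of 9204 measured genes lower and 11.3% higher.

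The FA library also held cells that clustered near the 3 distal classes but were not placed in them. Their segment of origin was not tested. A group of 149 FA and 3 Ctrl cells among them had injured tubule markers. In FA this group had Umod at 405 CPM, Slc12a3 at 145 CPM, Slc12a1 at 51.3 CPM and Kcnj1 at 40.3 CPM. These levels lay below those of the FA thick ascending limb-like cells and above the 6.59, 0.809, 1.33 and 0.289 CPM of FA immune-like cells for the same 4 genes. It pooled sub-clusters that differed. In 125 FA cells led by Krt7, Krt18 and Lcn2, Umod stood at 661 CPM (28 cells with a UMI) and Slc12a3 at 37.1 CPM. In the other 24 FA cells, led by Mt2, Ube2c and Krt7, Umod stood at 31.6 CPM and Slc12a3 at 302.2 CPM, with 67 of the group's 79 Slc12a3 UMIs in 6 cells. The other injured tubule-like cells, 454 in FA and 1 in Ctrl, had Scnn1a at 0.649 CPM in FA.

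Droplets of cells that do not make a transcript can still hold it as free RNA, and immune cells were used as such cells for the 10 genes. The 10 genes together had 494 UMIs in 7236 immune-like cells in FA, 14.3 CPM (13 to 15.6), and 205 UMIs in 1702 immune-like cells in Ctrl, 22.1 CPM (19.2 to 25.4). The ratio was 0.645 (0.547 to 0.763). In B and T cell-like cells alone it was 1.06 (0.808 to 1.41), from 29.5 CPM in FA and 27.7 CPM in Ctrl. That interval spans 1, so no direction can be read there. Of the UMIs summed in these cells, Aqp3 gave 53 of 221 in FA and 10 of 69 in Ctrl. Immune-like cells held 4.2% of the members' kept UMIs in FA and 0.395% in Ctrl.

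Gene by gene, 2 of 6 measured members were lower in FA in immune-like cells and 1 was higher, beside 17.4% of 14774 measured genes lower and 22.2% higher. Slc12a3 had 28 UMIs (0.809 CPM) in FA and 63 UMIs (6.8 CPM) in Ctrl, a ratio of 0.119 (0.0734 to 0.188), and Slc12a1 had 46 UMIs in FA and 29 in Ctrl, a ratio of 0.425 (0.261 to 0.701). Umod had 228 UMIs (6.59 CPM) in FA and 65 UMIs (7.02 CPM) in Ctrl, a ratio of 0.939 (0.71 to 1.26). Aqp2 had 44 UMIs in FA and 1 in Ctrl, a ratio of 11.8 with a wide interval (2.01 to 476). Umod and Aqp2 thus lay nearer to or above 1 in immune-like cells, while Slc12a3 lay well below 1 there as in the whole library.

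Not every member kept the same proportion to Umod across immune classes. Scnn1a had 38 UMIs in FA neutrophil-like cells, 53.7 CPM (38 to 73.7), in 34 of 393 cells (8.65%), but 0.134 CPM in FA macrophage-like cells, and Umod had 18.4 and 4.63 CPM in the same 2 FA classes. In monocyte-like cells Scnn1a had 11 UMIs (3.24 CPM) in FA and 10 UMIs (25.3 CPM) in Ctrl. Aqp3 had 50 UMIs, 7.69 CPM (5.71 to 10.1), in FA T cell-like cells and 9 UMIs, 4.71 CPM (2.16 to 8.95), in Ctrl T cell-like cells, against 0.269 CPM in FA and 0 in Ctrl in macrophage-like cells. These classes and genes were picked after their values were seen, and where these UMIs came from was not tested.

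Genes that work with the transporters were taken from 6 lists with 46 genes in all. In kept cells 32 of 46 were lower in FA and 1 was higher, beside 27.9% lower and 20% higher among all measured genes, with a median log2 ratio of -1.47. Over all deposited barcodes 24 were lower and 4 higher, beside 17.6% lower and 33.0% higher, with a median of -0.81. Those lower were then 7 of 8 basolateral partners, 5 of 8 thick ascending limb genes and 4 of 7 magnesium and calcium genes. They also included 4 of 8 aldosterone pathway genes, 2 of 8 cotransporter regulators and 2 of 7 water handling genes. The counts by list below are for kept cells, to be read beside the 27.9% of all measured genes lower there.

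The basolateral partners, which give the cells their sodium pump and chloride and potassium exits, were lower in 8 of 8 cases. Fxyd2, the gamma subunit of the pump, had 1264 CPM in FA and 3938 CPM in Ctrl (ratio 0.321, 0.318 to 0.324). Atp1b1 had a ratio of 0.368 and the potassium channel gene Kcnj16 of 0.341. Proximal tubule-like cells held 80.2% of Ctrl Fxyd2 UMIs and 81.3% of Ctrl Kcnj16 UMIs, so these 2 values are mostly sums over cells outside the distal nephron. The same class held the largest share of Atp1b1 UMIs, 42.6% in FA and 50.3% in Ctrl, so that ratio is not a distal nephron value either.

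Paracellular and hormone genes of the thick ascending limb were lower in 8 of 8 cases, among them Egf at 19.9 CPM in FA and 245 CPM in Ctrl (0.0809, 0.0762 to 0.0858). Cldn10, which encodes a tight junction protein, had a ratio of 0.539, Ppp1r1a of 0.111 and the prostaglandin receptor gene Ptger3 of 0.291. Of Cldn10 UMIs, 41.2% in FA and 69.8% in Ctrl lay in proximal tubule-like cells. Most Egf UMIs lay in thick ascending limb-like cells in Ctrl (66.5%), and in podocyte-like cells in FA (66.7%).

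Of the magnesium and calcium genes, 4 of 7 were lower. Calb1 had 8.69 CPM in FA and 295 CPM in Ctrl (0.0294, 0.027 to 0.032), and the sodium-calcium exchanger gene Slc8a1 25.3 CPM in FA and 118 CPM in Ctrl (0.215). Pvalb, with 10 UMIs in FA and 1234 in Ctrl, had a ratio of 0.00513 (0.00245 to 0.00947). Trpm7, the widely expressed relative of Trpm6, was within 1.5-fold at 0.724.

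Among genes of the aldosterone pathway and channel processing, 6 of 8 were lower. Hsd11b2 had 7.87 CPM in FA and 82.6 CPM in Ctrl (0.0953, 0.0866 to 0.105), and Prss8, a protease that activates ENaC, 26 CPM in FA and 109 CPM in Ctrl (0.239), although 54.2% of its UMIs in FA and 88.3% in Ctrl lay in proximal tubule-like cells. The kinase gene Sgk1, an aldosterone target that also responds to other signals, had a ratio of 0.634, with 63.8% of its Ctrl UMIs in endothelial-like cells, and Tsc22d3, a glucocorticoid-induced gene, of 1.45. The class with most Tsc22d3 UMIs in FA was T cell-like cells, with 22.5%.

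Cotransporter regulators had the median log2 ratio nearest to 0 of the 6 lists, -0.34, with 2 of 8 lower and 0 higher. That count is near the 27.9% of all measured genes lower in kept cells. Of the 4 with most UMIs, Wnk1, a kinase that acts on the cotransporters, had a ratio of 0.807, the ubiquitin ligase scaffold gene Cul3 0.771, Cab39 0.954 and Sorl1 0.894. The 2 that were lower, Wnk4 (0.339) and Klhl3 (0.187), are named after their values were seen. Wnk1 UMIs lay mainly in macrophage-like cells in FA (41.1%) and in distal convoluted tubule-like cells in Ctrl (42.1%).

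Water handling genes were divided, with 4 of 7 lower and 1 higher. Aqp1, the water channel of proximal tubule, thin limb and capillaries, had 8.2 CPM in FA and 177 CPM in Ctrl (0.0464), and 70.6% of its Ctrl UMIs lay in endothelial-like cells. The adenylyl cyclase gene Adcy6 had a ratio of 0.654 and the transcription factor gene Gata3 of 0.845. The urea transporter gene Slc14a2 was the only partner gene higher in kept cells, with 941 UMIs in FA and 38 in Ctrl (15.7, 11.3 to 22.3). In FA 83.2% of its UMIs lay in a thin limb-like group of 60 FA cells and 1 Ctrl cell, and in Ctrl 94.7% lay in principal cell-like cells.

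**Figure D5:**
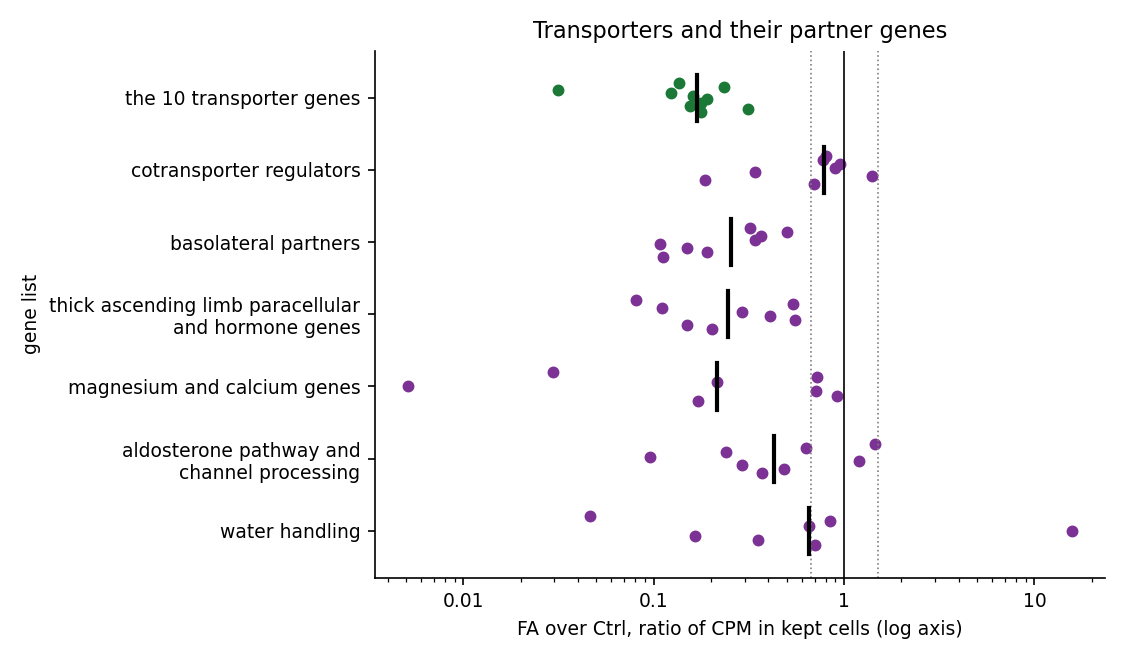
Ratio of CPM, FA over Ctrl, in kept cells (x, log axis) for the 10 transporter genes (green) and the 6 partner lists (purple); each point is a gene, black bars are medians, and dotted lines mark 1.5 and its inverse. All 10 transporters, all 8 basolateral partners and all 8 thick ascending limb genes lie left of the lines, and Slc14a2 alone lies to the right, at 15.7.

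The genes whose levels across 35 profiles of library and class were most like those of a member were ranked by Pearson correlation of log2(CPM + 1). For Slc12a1 they were Dusp9 (0.9), Cldn16 (0.893) and Cldn19 (0.86), and for Umod they included Kng2 (0.931) and Tmem72 (0.891). For Slc12a3 they were Esrrb (0.852), Ppp1r1a (0.841) and Abca13 (0.837), and Abca13 was also among the 3 nearest to Kcnj1 (0.931) and Trpm6 (0.825), with Mymx and Tfap2b, and Vstm2a and Ptgfr. Tspan1 was among the 3 nearest to both Scnn1a (0.902) and Scnn1b (0.917), with Cldn8 and Kcnq1, and Tfap2a and Myo5c, while Scnn1g was nearest to Tmem45b, Atp10b and Degs2. Aqp2 was nearest to Hsd11b2 (0.813), Kcne1 (0.787) and the vasopressin receptor gene Avpr2 (0.773), and Aqp3 to Dsc2 (0.874), Gpr39 and Itga2b. The profiles come from the same 2 libraries, share their depth and are not independent. Hsd11b2, Avpr2, Cldn16, Cldn19, Tmem72 and Ppp1r1a were also among the markers that named the classes. Part of their likeness to the members can therefore come from how the classes were named.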

How the data were processed

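The deposited matrix holds UMI counts of both samples, whole numbers not normalized, per the file's values and the labels' protocols; the submitters' processing notes name Seurat and mm10, and no source used here names the aligner or counting tool. Columns starting C3 were read as Ctrl by that letter alone, those starting FA3 as FA. Counting error shrinks with depth, 84138607 UMIs in FA and 63646459 in Ctrl, and UMIs do not cover variation between animals. The prefixes left 0 columns unassigned.

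Barcodes passed with 200 genes, 500 UMIs and at most 50% mitochondrial UMIs. The top Scrublet scores (scanpy 1.11.5) were left out at 0.8% per 1000 barcodes. Leiden clusters (resolution 1, 2000 variable genes without the members, 30 components, 15 neighbours) were named from fixed markers outside the members. A name needed 3 markers in 5% of cells, a score of 1 and a marker among the top 25 genes; this rule, and a second division of distal clusters (1000 variable genes, 20 components), were chosen after the data were seen.

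Summed UMIs were scaled to CPM. Intervals are exact: Poisson for CPM, conditional binomial for ratios, Clopper-Pearson for shares. Measured genes had 20 UMIs over both libraries and at least 1 in each; lower and higher mean a ratio past 1.5. Ratios and intervals were tested on simulated data. Alternatives covered scaling (also edgeR 4.0.16 TMM), fold, filters, doublets and clustering. Named genes were all members, the 4 partners with most UMIs per list and the 3 genes most like each member among those with 100 UMIs; some genes this rule names are not reported here. The members and lists were chosen with earlier results of these data known.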

Additional observations from a re-analysis of the deposited data

Results flagged for a closer look

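The results here stand out because a member was higher in FA within 1 class of cells while it was lower over all kept cells; none of these differences was tested, since there is 1 library a group. Aqp2 had a ratio of 2.1 (1.94 to 2.28) in principal cell-like cells and 0.313 (0.29 to 0.339) over all kept cells, and the first became 1 with called doublets kept. Aqp2 also had a ratio of 11.8 (2.01 to 476) in immune-like cells, from 44 UMIs in FA and 1 UMI in Ctrl. Slc12a1 had a ratio of 2.87 (2.03 to 3.96) in distal convoluted tubule-like cells and 0.135 (0.128 to 0.143) over all kept cells, with UMIs in 5 of 39 FA cells and 7 of 205 Ctrl cells; with called doublets kept it was 14.9 (6.01 to 42). Umod had a ratio of 5.72 (4.71 to 6.96) in intercalated-like cells and 0.233 (0.227 to 0.24) over all kept cells, with UMIs in 40 of 215 FA cells and 39 of 139 Ctrl cells.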

How the results depend on the processing

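The count of 10 lower members was also 10 under each alternative run in kept cells, and over all barcodes it was 9 at a fold of 2 and 10 otherwise. The median log2 ratio of the members in kept cells was -2.09 with doublets kept and -2.06 with Scrublet's own threshold, an alternative added after the data were seen. Over all barcodes it was -2.18 without mitochondrial UMIs in the total, -1.98 with TMM and -1.97 with median-of-ratios scaling, settings that moved every gene by -0.48, -0.28 and -0.26. The share of distal tubule-like cells in FA was 0.559% at resolution 2, 1.44% with doublets kept and 0.91% with members among the variable genes. The summed members in immune-like cells had a log2 ratio of -0.63, and 0.088 in B and T cell-like cells only. The sign was reversed, but the interval of the latter ratio spans 1 (0.808 to 1.41). The cause was not tested. Of the single-gene values recomputed under alternatives, 92 moved beyond counting error and 117 did not, and none that was past 1.5-fold as reported changed sign. The 117 include the fold of 2 and the dropped minimum of UMIs, settings that cannot move a single gene's ratio. These counts are therefore no measure of how stable the values are. Umod in distal convoluted tubule-like cells ranged from a log2 ratio of -5.49 with a 20% mitochondrial limit, which left 6 FA cells, to 0.72 at resolution 2, against -0.36 as reported. No paired analysis was possible because each group has 1 library. Within the distal classes, 18 FA principal cell-like cells and 4 Trpm6 UMIs limit what can be read.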
